A study of Mus musculus with 18 samples.

Results

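The genes described here are Arhgef12, Tspan17, Zcchc14 and Abca8b, 4 of the 25965 gene rows in a pair of count tables from mouse bone marrow B cells. They are autosomal genes taken by symbol from both tables chosen by their measured rise in counts in Smchd1 del/del libraries and because they belong to none of the imprinted, cadherin or developmental gene groups. The contrast between Smchd1 genotypes therefore selected them, so their values in that contrast are given as a description, with no test. All 4 had enough reads to be tested in both sexes, among 13501 rows in females and 13413 in males.

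The cells were sorted as CD45.2+ B220+ Mac1- from femurs of C57BL/6 mice aged 12 to 16 months, and polyA RNA was sequenced. There were 4 groups: Smchd1[del/+] Vav.Cre[T/+] females (5 libraries), Smchd1[del/del] Vav.Cre[T/+] females (5), Smchd1[del/+] Vav.Cre[T/+] males (4) and Smchd1[del/del] Vav.Cre[T/+] males (4). Every animal, controls included, carried the Cre transgene and at least 1 deleted Smchd1 allele, so no library came from a mouse with both alleles intact. The Vav promoter drives Cre throughout the blood lineages, so the deletion was not particular to B cells. The labels give each library its own animal number, and p-values measure the spread between these libraries.

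SMCHD1 is a chromatin protein that helps keep genes silent on the inactive X chromosome, at imprinted clusters and at clustered protocadherin genes. The genes described here lie outside those classes and do unrelated work. Arhgef12 encodes LARG, a guanine nucleotide exchange factor that is recruited by active Galpha12 and Galpha13 subunits and switches on the small GTPase RhoA, which drives actin contraction and in B cells acts downstream of receptors that restrain migration. Tspan17 encodes a tetraspanin of the TspanC8 subgroup, whose members bind the membrane protease ADAM10 and carry it from the endoplasmic reticulum to the cell surface. Zcchc14 encodes a protein with a CCHC zinc knuckle and a SAM domain, which in human cells brings TENT4 tailing enzymes to RNA stem-loops. Abca8b encodes an ABCA-family membrane transporter of lipids, related to human ABCA8, which is linked to cholesterol efflux.

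Total counts were 11650350 to 29405395 in female del/+ libraries, 19133963 to 25250778 in female del/del, 9788112 to 19958091 in male del/+ and 19748770 to 22614546 in male del/del. Levels are CPM, counts scaled to library depth. Smchd1 itself ranged from 235 to 271 CPM in female del/+ and 127.9 to 173.4 in female del/del libraries, and from 273 to 324 in male del/+ and 162 to 197 in male del/del libraries. Reads of Smchd1 thus remained in del/del libraries, and the groups of a sex did not overlap. B cell markers were detected in full, 12 of 12 in each group, with a summed level of 9459 to 11534 CPM over all libraries. The sum of 12 myeloid markers was 985 to 5807 CPM, so transcripts of other marrow cells were present in the sort. The sum of 12 plasmacytoid dendritic cell markers was 2855 to 4939 CPM. Whether those reads came from such cells or from B cells was not tested. Between genotypes, 11 erythroid markers had a median log2 change of -0.81 in females and -0.66 in males, and 12 plasmacytoid dendritic markers had 0.40 in each sex. The 12 myeloid markers had a median of 0.20 in females and 0.24 in males, and no fit took them as a covariate. No marker of these lists was called.

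Male del/+ library 2 stood apart from the other libraries. Of a neural marker list chosen after this was seen, 15 rows were found, and all 15 had reads there. Leaving out Mbp, which was at 88.2 to 103 CPM in every male del/+ library, their sum was 107 CPM in library 2, against 3.75 to 5.92 in the other male del/+ libraries, 2.42 to 14.4 in male del/del, 2.06 to 2.67 in female del/+ and 2.13 to 4.40 in female del/del. Dcx, a tubulin-binding protein of migrating neurons, had 360 reads in library 2 and at most 12 in any other male del/+ library. Male del/del libraries 2 and 3 had 43 and 45 Dcx reads, and every female library had 0. Fibroblast and stromal markers summed to 38.1 CPM in library 2 and 6.73 to 10.5 in the other male del/+ libraries. The male values of the 4 genes are therefore given with and without library 2.

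Upstream sequences are shown because the genes differ in how rich in CG dinucleotides, the sites of DNA methylation, their starts are. The sequences are from RefSeq (GRCm38.p6), end at the last base before the gene row on the gene's own strand, read 5′ to 3′ and have each CG in capitals. The stretch of Tspan17 is chr13:54789155-54789376 on the plus strand and that of Abca8b chr11:109995846-109996095 on the minus strand.
Tspan17: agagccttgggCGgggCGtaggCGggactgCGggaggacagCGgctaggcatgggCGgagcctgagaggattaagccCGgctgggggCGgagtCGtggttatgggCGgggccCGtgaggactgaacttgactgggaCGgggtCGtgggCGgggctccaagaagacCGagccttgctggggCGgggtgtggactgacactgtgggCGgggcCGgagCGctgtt
Abca8b: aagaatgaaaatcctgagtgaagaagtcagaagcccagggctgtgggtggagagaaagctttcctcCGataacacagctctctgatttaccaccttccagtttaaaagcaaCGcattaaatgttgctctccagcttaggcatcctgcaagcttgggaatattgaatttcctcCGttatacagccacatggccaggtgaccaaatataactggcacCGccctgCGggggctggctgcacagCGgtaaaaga
The Tspan17 stretch holds 19 CG in 222 bases and that of Abca8b 6 in 250 bases. Over the 300-base RefSeq window around each start, the counts were 44 for Arhgef12, 29 for Tspan17, 29 for Zcchc14 and 10 for Abca8b, against a median of 7 over 32851 windows. Of all windows, 2.25% held at least as many CG as Arhgef12, 12.9% as many as Tspan17 or Zcchc14, and 43.5% as many as Abca8b. The window of Zcchc14 lies wholly inside its row in the count table, with the RefSeq start 968 bases from the row's edge, and its sequence is not shown. The stretch before the Arhgef12 row lies in an exon of a longer GENCODE M21 transcript and is not shown either.

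Both strands of these windows were searched for 4 motifs. GGGCGG, the core of the GC box bound by SP-family factors, occurred 10 times in the Tspan17 window, 2 times in that of Arhgef12, 1 time in that of Abca8b and 0 times in that of Zcchc14, and 35.7% of all windows hold it. CACGTG, the palindromic E-box, occurred 1 time, in the Abca8b window, and 7.15% of windows hold it. TATAAA and CCAAT were in none of the 4 windows, and 13.6% and 37.4% of windows hold them. No 2 matches of these motifs overlapped in any of the 4 windows, and a match is a description of these letters only.

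**Figure D1:**
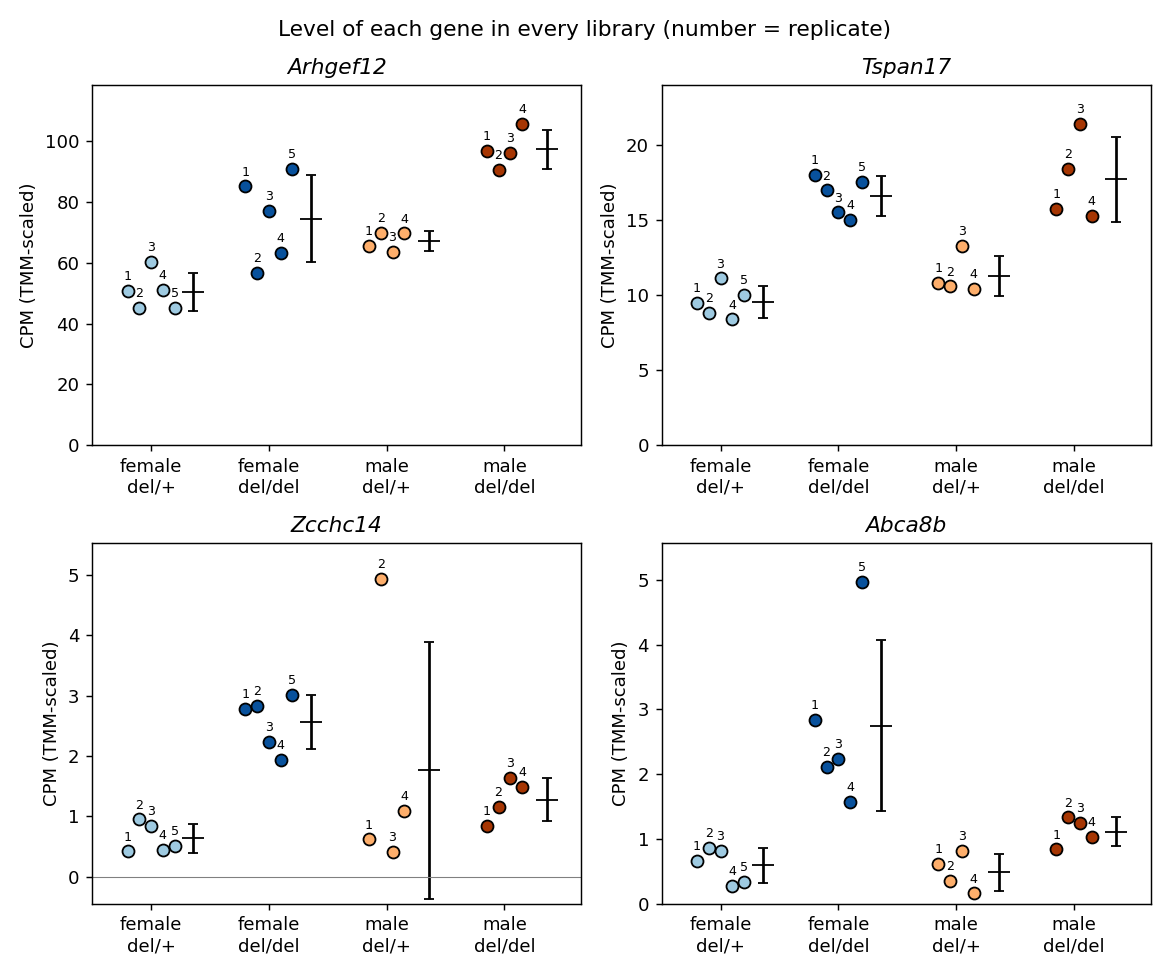
CPM of Arhgef12, Tspan17, Zcchc14 and Abca8b in each of the 18 libraries, by sex and Smchd1 genotype; numbers are replicates, and the bar beside each group is mean ± SD. All del/del points of Tspan17 and Abca8b lie above the del/+ points of their sex, Abca8b lies under 1 CPM in all del/+ libraries, and male del/+ library 2 has the highest Zcchc14 value of all, 4.94 CPM.

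Arhgef12 (ENSMUSG00000059495, mm10 chromosome 9, 42963842 to 43105718, minus strand) had the highest CPM of the 4 genes in every library. In female del/+ libraries it was at 50.7, 45.1, 60.3, 51.0 and 45.03 CPM, and in female del/del libraries at 85.0, 56.5, 76.9, 63.1 and 90.6 CPM. The female groups overlapped in 1 place: del/del library 2 lay below del/+ library 3. In male del/+ libraries it was at 65.4, 69.8, 63.4 and 69.6 CPM, and in male del/del libraries at 96.6, 90.3, 96.0 and 106 CPM, with no overlap. Female means were 50.4 ± 6.21 (SD, n = 5) and 74.4 ± 14.4 CPM (SD, n = 5), a log2 difference of 0.56 (SE 0.13). Male means were 67.0 ± 3.19 (SD, n = 4) and 97.1 ± 6.33 CPM (SD, n = 4), a log2 difference of 0.53 (SE 0.07), and of 0.55 (SE 0.08) without library 2. In bulk libraries a lower level in a group can come from fewer cells of a type or from less RNA per cell, and these cannot be told apart. Of the 50-base windows of its exons, 9.60% also occur in another gene, on the reverse strand, so part of its count could be shared if reads were counted without strand.

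The spread of Arhgef12 within groups, pooled over all 18 libraries, followed genes of mature B cells, though not in every group. A list of 14 such genes, chosen after the likeness search below had placed Bank1 first, included Cd74 and H2-Aa (antigen presentation) and Fcer2a and Cr2 (surface receptors of mature B cells). With the group means taken off, the Pearson correlation of Arhgef12 with the mean log2 CPM of the list was 0.84 over 18 libraries, against 0.072 for Tspan17, -0.049 for Zcchc14 and 0.14 for Abca8b; the libraries share their depth and scaling in both measures. Female del/del library 2, the lowest in Arhgef12 of its group, was also the lowest in the list at 7.39 log2 CPM, and library 5, the highest in Arhgef12, was the highest at 8.67. Male del/+ library 2 went the other way, the lowest of its group in the list at 8.84 and the highest in Arhgef12 at 6.146 log2 CPM. The correlation was not taken group by group. Between genotypes the list had 0 of 14 genes called in either sex, with a median log2 change of 0.12 in females and 0.071 in males, and 12 of 14 above 0 in each. The share above 0 over all tested genes was 48.8% in females and 50.6% in males. With the list's level as a covariate, the Arhgef12 difference was 0.51 (SE 0.08) in females and 0.51 (SE 0.07) in males. With the erythroid or the plasmacytoid dendritic list as the covariate instead, the female difference was 0.46 (SE 0.17) or 0.45 (SE 0.14) and the male difference 0.56 (SE 0.07) or 0.60 (SE 0.08).

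**Figure D2:**
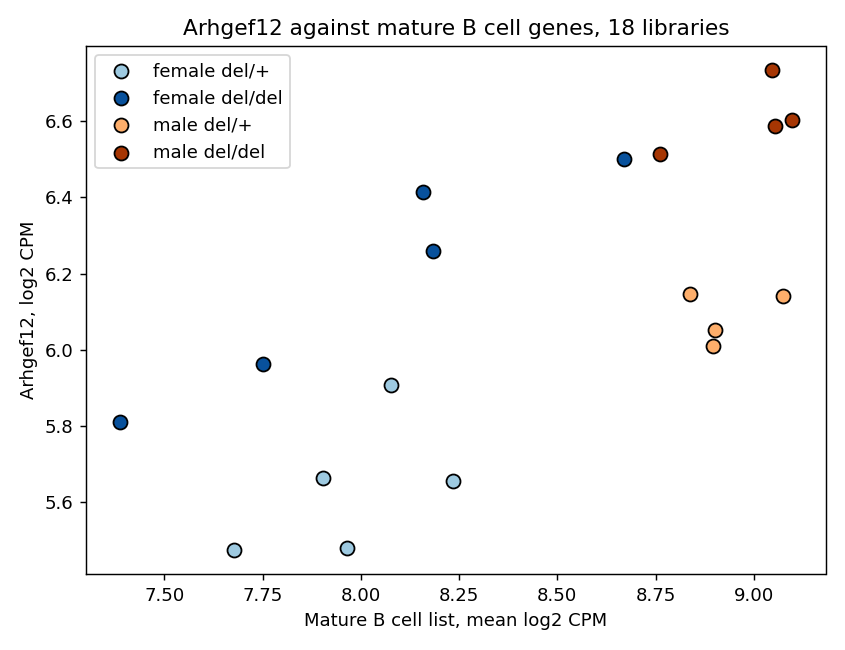
Level of Arhgef12 (log2 CPM) against the mean log2 CPM of 14 mature B cell genes, 1 point per library, coloured by sex and genotype. Female del/+ points span 7.68 to 8.23 on the list axis and female del/del points 7.39 to 8.67. The lowest and the highest female del/del libraries thus have no female del/+ library of like level. Males lie to the right, at 8.76 to 9.10 against 7.39 to 8.67 in females.

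Tspan17 (ENSMUSG00000025875, mm10 chromosome 13, 54789377 to 54796776, plus strand) had the lowest coefficient of variation of the 4 genes in female del/del libraries, 7.84%. It was at 9.44, 8.81, 11.1, 8.37 and 10.001 CPM in female del/+ libraries and at 18.002, 16.9, 15.5, 14.97 and 17.5 CPM in female del/del libraries. In males it was at 10.8, 10.6, 13.3 and 10.4 CPM in del/+ and at 15.7, 18.4, 21.4 and 15.2 CPM in del/del libraries. Every del/del library was above every del/+ library of its sex. The means were 9.55 ± 1.07 and 16.6 ± 1.30 CPM (SD, n = 5 each) in females, a log2 difference of 0.79 (SE 0.12), and 11.3 ± 1.36 and 17.7 ± 2.83 CPM (SD, n = 4 each) in males, a log2 difference of 0.65 (SE 0.14). Without male del/+ library 2 the male difference was 0.61 (SE 0.15). None of the 50-base windows of its exons occurs in another gene.

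Zcchc14 (ENSMUSG00000061410, mm10 chromosome 8, 121598703 to 121652901, minus strand) was a gene of few reads. In females the del/+ libraries had 12, 11, 25, 8 and 12 reads and the del/del libraries 54, 67, 58, 42 and 63. These were 0.418, 0.950, 0.846, 0.447 and 0.511 CPM against 2.79, 2.82, 2.24, 1.94 and 3.01 CPM, with no overlap. The female means were 0.634 ± 0.246 and 2.56 ± 0.450 CPM (SD, n = 5 each), a ratio of 4.04 and a log2 difference of 2.03 (SE 0.30). The neural marker sum without Mbp did not exceed 4.40 CPM in any female library, and its bearing on the Zcchc14 values was not tested.

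In males the Zcchc14 values turned on library 2. The del/+ libraries had 6, 100, 7 and 14 reads (0.617, 4.94, 0.406 and 1.09 CPM), and the del/del libraries 18, 26, 37 and 29 reads (0.836, 1.15, 1.64 and 1.49 CPM). Library 2 was 4.51 times the next del/+ library, a ratio reached by 68 of 13413 tested genes. With it, the means were 1.76 ± 2.13 and 1.28 ± 0.358 CPM (SD, n = 4 each) and the log2 difference -0.53 (SE 0.66). Without it, the del/+ mean was 0.705 ± 0.352 CPM (SD, n = 3) and the log2 difference 0.87 (SE 0.40), and del/+ library 4 still lay above del/del library 1. Neural, stromal and erythroid markers were raised in del/+ library 2 beside Zcchc14, and their part in its value was not tested. Del/del libraries 2 and 3 had neural sums of 13.3 and 14.4 CPM, against 3.75 to 5.92 CPM in the other del/+ libraries. Whether this bears on the difference without del/+ library 2 was not tested. The Zcchc14 row lies within the span of Gm20388, a readthrough row on the opposite strand at 95.9 CPM in female del/+ libraries, whose log2 change was -0.08 in females and -0.07 in males.

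**Figure D3:**
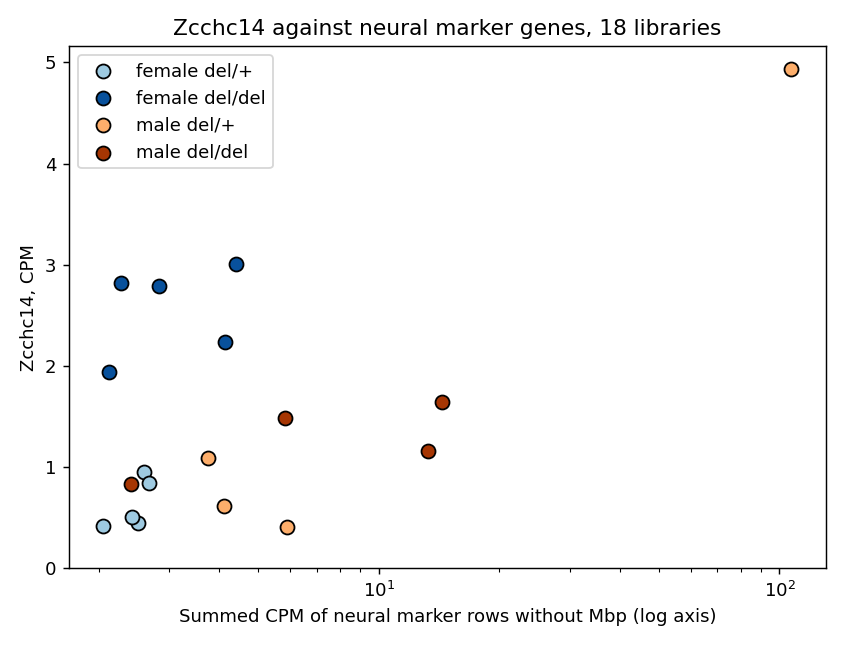
Zcchc14 (CPM) against the summed CPM of neural marker rows without Mbp on a log axis, 1 point per library. Male del/+ library 2 lies alone at 107 and 4.94 CPM. Female del/del libraries lie at 1.94 to 3.01 CPM of Zcchc14 and neural sums of 2.13 to 4.40 CPM.

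Abca8b (ENSMUSG00000020620, mm10 chromosome 11, 109932190 to 109995845, minus strand) was low in every del/+ library. In females it had 19, 10, 24, 5 and 8 reads in del/+ and 55, 50, 58, 34 and 104 in del/del libraries. The levels were 0.662, 0.864, 0.812, 0.279 and 0.340 CPM against 2.84, 2.11, 2.24, 1.57 and 4.97 CPM. In males it had 6, 7, 14 and 2 reads in del/+ libraries (0.617, 0.346, 0.812 and 0.156 CPM) and 18, 30, 28 and 20 in del/del libraries (0.836, 1.33, 1.24 and 1.03 CPM). The groups of either sex did not overlap, though in males the gap was from 0.812 to 0.836 CPM. The means were 0.592 ± 0.269 and 2.75 ± 1.32 CPM (SD, n = 5 each) in females, a ratio of 4.64 and a log2 difference of 2.21 (SE 0.40), and 0.483 ± 0.290 and 1.11 ± 0.222 CPM (SD, n = 4 each) in males, a ratio of 2.30 and a log2 difference of 1.19 (SE 0.41). Without male del/+ library 2 the male difference was 1.02 (SE 0.44), and without female del/del library 5, the highest, the female difference was 1.88. The row overlaps the antisense gene Gm11697, and 2.45% of its 50-base exon windows occur there or in Abca8a, its closest relative in the cluster, which had 0 reads in all libraries.

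In females the 4 genes fell into a pair of moderate level with a small difference and a pair of very low level with a larger one. By size of the log2 difference, Abca8b was 36th and Zcchc14 45th of 13501 genes from the top in females, Tspan17 was 283rd and Arhgef12 564th. In males Abca8b was 55th of 13413, Tspan17 231st, Arhgef12 368th and Zcchc14 13228th, and without del/+ library 2 they were 144th, 421st, 504th and 211th of 13521. The median log2 difference over all genes was -0.0044 in females and 0.0013 in males. In edgeR's quasi-likelihood test with Benjamini-Hochberg adjustment, 33 genes, or 0.244%, were called higher in female del/del and 15, or 0.112%, in male del/del libraries. Of the 4 genes, 3 were called in females (not Arhgef12) and 1 in males (Arhgef12), and nothing is read from these counts, since the same contrast selected the genes. Likewise 3 of 4 had every del/del library above every del/+ library in females, where 0.83% of genes did, and 3 of 4 in males, where 1.45% did (2.68% without male del/+ library 2, with the same 3). Tspan17 and Abca8b did so in both sexes, where 0.243% of 13175 genes did. In the authors' deposited table the log2 fold changes were 0.58, 0.81, 2.05 and 2.23 in females for Arhgef12, Tspan17, Zcchc14 and Abca8b, and 0.54, 0.65, -0.54 and 1.19 in males.

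Per kilobase of exon, with exons merged over all GENCODE M21 transcripts of a gene, Tspan17 was the most abundant. Its level was 5.76 CPM per kb in female del/+, 10.01 in female del/del, 6.79 in male del/+ and 10.7 in male del/del libraries. Arhgef12, with 13.62 kb of exon against 1.657 kb, was at 3.70, 5.47, 4.92 and 7.13 CPM per kb in the same order. Its GENCODE exons reach to 43107239, past the end of its counted row at 43105718, so its level per kb could be understated. Zcchc14 was at 0.0815, 0.329, 0.227 and 0.164, and Abca8b at 0.0797, 0.370, 0.0650 and 0.149 CPM per kb. Without library 2 the male del/+ level of Zcchc14 was 0.0907 CPM per kb (n = 3) and that of Abca8b 0.0712. On this scale Zcchc14 and Abca8b lay far below Tspan17 and Arhgef12 in every group.

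The sexes were compared over all 18 libraries as the mean of both female groups against the mean of both male groups. The sex difference did not select the genes, but the del/del libraries whose rise selected them are part of this contrast. An unequal rise in the sexes therefore enters it. Arhgef12 was lower in females, with a log2 difference of -0.42 (SE 0.08, adjusted p = 0.000676, edgeR's quasi-likelihood test). The order of its groups was female del/+, male del/+, female del/del and male del/del. In log2 CPM scaled over all 18 libraries, the del/+ groups of the sexes did not overlap and neither did the del/del groups, where female library 5 was at 6.501 and male library 2 at 6.515, whereas male del/+ and female del/del overlapped. Such a difference was common, as 2901 genes, or 20.7%, were called lower in females and 41.9% in either direction, and the mature B list was also lower in females; its part in the difference was not tested. Tspan17 (-0.19, SE 0.09, adjusted p = 0.0848), Zcchc14 (-0.30, SE 0.36, adjusted p = 0.525) and Abca8b (0.77, SE 0.31, adjusted p = 0.0545) were not called by edgeR's test. Without male del/+ library 2, Zcchc14 was at 0.40 (SE 0.25, adjusted p = 0.220, edgeR) Arhgef12 at -0.41 (SE 0.09), Tspan17 at -0.20 (SE 0.09) and Abca8b at 0.69 (SE 0.33). For Abca8b and Zcchc14 the sexes lay nearer in del/+ than in del/del libraries, in CPM scaled within each sex. Abca8b means were 0.592 in female and 0.483 in male del/+, and 2.75 and 1.11 in del/del libraries. Zcchc14 means without male del/+ library 2 were 0.634 and 0.705 in del/+, and 2.56 and 1.28 in del/del libraries. Each sex was deposited as its own table, so sex and anything else that differed between the tables cannot be told apart.

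The genotype difference of females minus that of males was 0.04 (SE 0.17) for Arhgef12, 0.16 (SE 0.17) for Tspan17, 2.57 (SE 0.73) for Zcchc14 and 1.04 (SE 0.62) for Abca8b on the log2 scale. Without male del/+ library 2 the values were 0.0082, 0.18, 1.17 and 1.17. Across all genes edgeR called 0 of 14017 interactions, with 1.45% at an unadjusted p under 0.05, and DESeq2 called 4.

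The genes did not move as a block from library to library. With group means taken off, Tspan17 and Abca8b had a Pearson correlation of 0.56 over 18 libraries, Arhgef12 and Abca8b 0.31, Arhgef12 and Zcchc14 0.22 and Arhgef12 and Tspan17 0.17. Zcchc14 was at -0.045 with Abca8b and -0.064 with Tspan17. These were 0.049 and 0.061 with male del/+ library 2 left out of the correlation but still counted in the mean of its group. These describe libraries that share depth and scaling.

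The genes most like each of them were sought among 10273 rows by the same measure. The highest of so many correlations over 18 libraries is large even for unrelated genes, and no value was tested. Arhgef12 was most like Bank1 (0.945), a B cell scaffold protein, then Stxbp3b (0.932) and Fam65b (0.907), an inhibitor of RhoA. Tspan17 was most like Ogfod2 (0.873), Hexdc (0.854) and Tpm1 (0.838), a tropomyosin. Abca8b was most like Xlr4b (0.834), an X-linked gene, Setd1b (0.832), a histone H3 methyltransferase, and Slc12a4 (0.820), a potassium and chloride cotransporter. Zcchc14 was most like Ncam1 (0.821), a neural cell adhesion molecule, Basp1 (0.794), a growth cone protein, and Peg3 (0.788). Without male del/+ library 2 those 3 fell to 0.530, 0.320 and 0.434, and Tmco7 (0.800), Gatm (0.777) and Sipa1l1 (0.728) came first. The first gene of Arhgef12 and of Tspan17 stayed first without that library, and for Abca8b Pml came first (0.865), with Xlr4b next (0.861).

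Families and pathways of the 4 genes were taken as lists, with the 4 left out. None held a called gene in either sex by edgeR at an adjusted p under 0.05. Of all genes, 0.252% were called in females and 0.119% in males. Beside Arhgef12, the Galpha12 and Galpha13 to RhoA pathway had 25 tested genes with a median log2 change of -0.0028 in females and -0.0053 in males. Its member Ptk2, the focal adhesion kinase, was nearest to a call, at 6.76 ± 1.59 and 14.0 ± 3.41 CPM in females (SD, n = 5 each; log2 1.06, SE 0.20, adjusted p = 0.0535 by edgeR, 9.01e-05 to 0.219 over alternatives). In males Ptk2 was at 17.3 ± 2.69 and 27.5 ± 3.45 CPM (SD, n = 4 each; log2 0.67, SE 0.13, adjusted p = 0.185 by edgeR, 0.00216 to 0.770 over alternatives). Its groups did not overlap in either sex. The same pathway held Rhoc, a GTPase close to RhoA, at -0.84 (SE 0.38) in females, and Limk1, a kinase downstream of RhoA effectors, at 0.23 (SE 0.11) in males.

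Other Dbl-family exchange factors numbered 50 tested in females and 49 in males, with medians of 0.052 and 0.000078. Trio, a guanine nucleotide exchange factor for small GTPases, had log2 0.38 (SE 0.11, adjusted p = 0.428 by edgeR) in females and 0.40 (SE 0.08, adjusted p = 0.216 by edgeR) in males, and Plekhg1 was at 1.02 (SE 0.27) in females. In males Rasgrf2 was at 0.60 (SE 0.21) and Kalrn, a relative of Trio, at -0.46 (SE 0.16). None of these passed the test.

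Beside Tspan17, the TspanC8 and ADAM10 list, which holds the other tetraspanins of the subgroup, the protease and its substrates, had 12 tested genes in females and 11 in males, with medians of 0.0081 and -0.042. Adam10 itself was at 387 ± 19.1 and 349 ± 24.7 CPM in males (SD, n = 4 each; log2 -0.15, SE 0.07), and its substrate App was at 0.38 (SE 0.23) in females. Of 20 and 18 tested tetraspanins the median was -0.059 and 0.020. Tspan9 had the largest of the named differences in that list, 0.351 ± 0.210 to 0.795 ± 0.208 CPM in females (SD, n = 5 each; log2 1.21, SE 0.46), Tspan13 was at -0.27 (SE 0.11) in females and Tspan31 at 0.20 (SE 0.08) in males.

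Beside Zcchc14, 20 genes of messenger RNA tailing and deadenylation had medians of -0.027 and -0.0054, and Cnot2, a subunit of the CCR4-NOT deadenylase, was at -0.13 (SE 0.10) in females and -0.07 (SE 0.06) in males. The list of CCHC zinc knuckle genes had 15 tested with medians of -0.024 and -0.0071, and Zcchc3 had opposite signs, -0.43 (SE 0.19) in females and 0.35 (SE 0.17) in males. Beside Abca8b, 8 other ABCA transporters were tested, 7 of them above 0 in each sex, with medians of 0.18 and 0.12. Of all tested genes, 48.8% were above 0 in females and 50.6% in males, and of the 15 CCHC genes 4 and 7 were. Abca5, a lysosomal transporter from the same cluster, was at 8.04 ± 1.48 and 12.6 ± 5.27 CPM in females (SD, n = 5 each; log2 0.64, SE 0.27) and at 9.35 ± 2.65 and 13.8 ± 1.84 CPM in males (SD, n = 4 each; log2 0.55, SE 0.19), not called in either. Its female difference was 0.35 with the erythroid and 0.17 with the plasmacytoid dendritic covariate. The 20 genes of cholesterol efflux and sterol metabolism had medians of 0.058 and -0.0024. Of these Apoe, the lipid carrier, was at 73.3 ± 14.0 and 125 ± 62.0 CPM in females (log2 0.77, SE 0.29) and at 95.0 ± 18.4 and 149 ± 43.9 CPM in males (log2 0.64, SE 0.21), and Abcg1, a cholesterol exporter, was at -0.20 (SE 0.08) in males; neither passed the test.

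No gene near the 4 was called by edgeR. Within 500 kb lay 64 rows, of which 36 were tested in females and 35 in males, with a median log2 change of -0.014 and -0.021. EdgeR called 0 in either sex, with 3 and 4 at an unadjusted p under 0.05, where 4.3% of all genes were in females and 3.34% in males, and DESeq2 called 1 in females, Unc5a, and 0 in males. Unc5a, a netrin receptor 153 kb from Tspan17, was at 12.1 and 21.6 CPM in female del/+ and del/del libraries (log2 0.83, SE 0.22) and at 9.72 and 14.0 CPM in males (log2 0.53, SE 0.22). On the other side of Tspan17, Rnf44 was at 0.05 in females and -0.0031 in males. Around Zcchc14, Map1lc3b, an autophagy protein gene 0.656 kb away, was at 122 CPM in both female groups and at 112 and 105 CPM in males, and Klhdc4 was at 0.07 and -0.05 (log2). Around Arhgef12, Tbcel was at -0.07 and -0.08, and Oaf at 0.37 (SE 0.50) in females and -1.002 (SE 0.39) in males. Around Abca8b, Prkar1a, a regulatory subunit of protein kinase A, was at -0.05 and -0.04, and Abca9 at -0.17 (SE 0.62) and 0.59 (SE 0.46). Abca5, described above with the ABCA transporters, lay 274 kb from Abca8b and was at 0.64 (SE 0.27) in females and 0.55 (SE 0.19) in males.

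**Figure D4:**
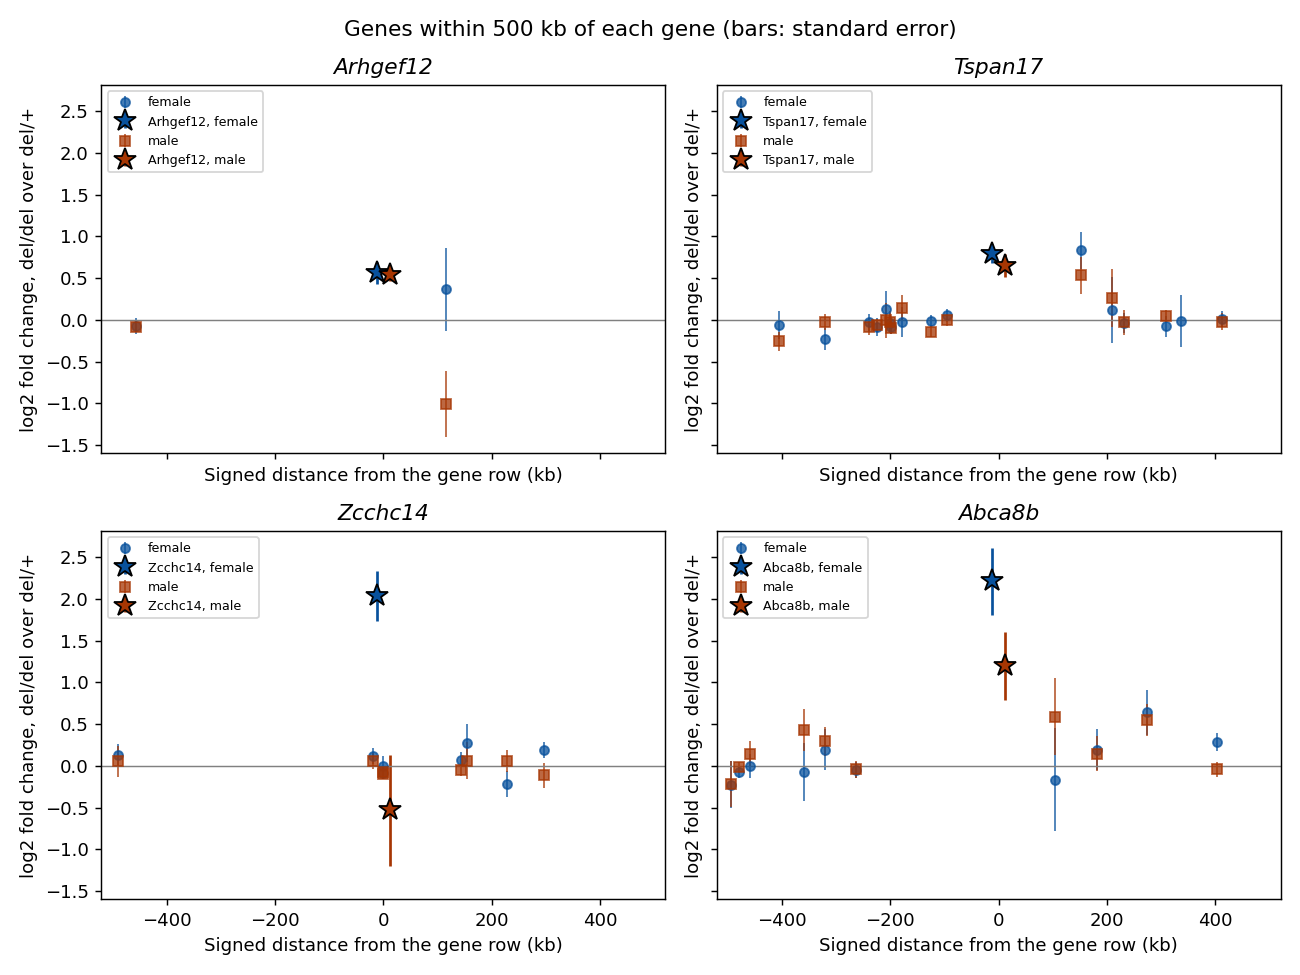
Log2 fold change (del/del over del/+) of tested genes within 500 kb of each gene, against signed distance of the gene rows in kb, females as circles and males as squares with standard errors; stars are the 4 genes, drawn slightly off 0 so that both sexes show. Most neighbours lie near 0, with Unc5a beside Tspan17 at 0.83 in females and Oaf beside Arhgef12 at -1.002 in males. Abca5 beside Abca8b is at 0.64 in females and 0.55 in males.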

How the data were processed

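Raw counts of reads per gene were deposited by the authors as separate female and male tables, with 18 library columns in all. They also deposited, per the file headers, log2 fold changes and log2 mean levels, an F score and raw and adjusted p-values for each gene, quoted only beside "the authors' deposited table". Per the submitters' processing notes, TopHat and edgeR 3.32.1 were used with mm10 and GRCm38. How reads were assigned to genes, with which annotation and whether by strand, is not given in the sources used here. There were 4 columns of group means, which were not used, and 56 rows had no gene identifier but carried a symbol and stayed in.

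Counts were fitted in R 4.3.3 with edgeR 4.0.16: filterByExpr (minimum count 10, minimum total 15), TMM factors and a quasi-likelihood test of del/del over del/+ libraries, within each sex, with Benjamini-Hochberg adjustment over all genes tested and a threshold of 0.05. The sex effect and the interaction were fitted over 18 libraries. CPM carry TMM factors set within each sex, and log2 CPM for correlations carry factors set over 18 libraries and a prior count of 2. The fits were tested on simulated data. Alternatives used DESeq2 1.42.0 and limma 3.58.1. RefSeq windows reach from 250 bases before to 50 after a start.

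The genes and gene lists were chosen with earlier results of these data known. Named genes were the 4, Smchd1, up to 3 genes per list and sex of the smallest p, the nearest tested gene on each side within 500 kb and the 3 genes of highest correlation at a mean log2 CPM of at least 1. Unc5a, Gm20388, Abca8a, Dcx, Mbp and the mature B and neural lists were named after their values were seen. Samples were numbered in accession order, and the labels state no pairs.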

Additional observations from a re-analysis of the deposited data

Results flagged for a closer look

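Among 4 genes in 4 groups, 16 sets of libraries were examined for a single library far from the rest by Dixon's criterion, and 2 held one; chance alone gives about 1 in 20. Tspan17 in male del/+ library 3 was at 13.3 CPM, above 10.4 to 10.8 in the other libraries of its group. Zcchc14 in male del/+ library 2 was at 4.94 CPM, against 0.406 to 1.09 in the others, in the library that also held neural, stromal and more erythroid transcripts. The genotype change of Zcchc14 went opposite ways in the sexes, with a difference of 2.57 on the log2 scale between females and males. That difference was not called across all genes by edgeR and was 1.17 without male del/+ library 2, where both sexes had a positive change.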

How the results depend on the processing

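The contrast between Smchd1 genotypes selected the 4 genes, so their signs and calls under alternatives are a description, and nothing is read from them. The female differences of all 4 genes were positive under each of 19 alternatives. They were 0.45 to 0.65 for Arhgef12, 0.67 to 0.85 for Tspan17, 1.90 to 2.19 for Zcchc14 and 1.81 to 2.38 for Abca8b (log2). The male differences of Arhgef12 (0.49 to 0.60), Tspan17 (0.54 to 0.73) and Abca8b (0.92 to 1.61) were positive under each of 17. Past the threshold in females were Arhgef12 under 3 of 19 alternatives, Tspan17 under 18, Zcchc14 under 16 and Abca8b under 7, and in males Arhgef12 under 9 of 17 and Tspan17 under 1. With the erythroid covariate no gene of the 4 passed in females. The female differences there were 0.67 (SE 0.14) for Tspan17, 2.07 (SE 0.42) for Zcchc14 and 1.81 (SE 0.53) for Abca8b. Male Zcchc14 was positive under 4 of 17 alternatives: without male del/+ library 2 (0.87, with -0.88 the lowest when others were left out), with the erythroid covariate (0.87), the plasmacytoid dendritic covariate (0.14) and limma-voom (0.03). In the sex effect Zcchc14 was 0.52 with the erythroid and 0.049 with the plasmacytoid dendritic covariate and -0.47 to 0.40 with single libraries left out; Tspan17 was -0.24 with the erythroid covariate (adjusted p = 0.0481, 0.0481 to 0.270 over alternatives) and -0.22 to -0.14 with libraries left out; Abca8b was 0.77 with DESeq2 (adjusted p = 0.0403, 0.0271 to 0.870 over alternatives), 0.48 with the erythroid and 0.14 with the plasmacytoid dendritic covariate, and 0.60 to 0.98 with libraries left out. The interaction of Zcchc14 ranged from 1.17 to 2.90.

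Genes called in females numbered 34, and 92 with DESeq2, 14 with the erythroid covariate, 58 with all 18 libraries in 1 fit, 54 with the mature B covariate (added after seeing the data) and 26 to 41 with libraries left out. In males they numbered 16, and 49 with DESeq2, 5 with the plasmacytoid dendritic covariate and 5 (without del/+ library 1) to 22 (without del/+ library 2) with libraries left out. For the sex effect they numbered 5868, and 3894 with the plasmacytoid dendritic covariate and 5181 to 6325 with libraries left out. Interactions called were 4 with DESeq2. The related lists held 1 female call, Ptk2, with RLE factors, no filter, DESeq2, all 18 libraries and the mature B covariate, and 0 to 1 with libraries left out (1 without female del/+ library 4, del/del library 2 or del/del library 4); in males DESeq2 called 2, Ptk2 and Trio. Near the genes DESeq2 called 1 in females, Unc5a (adjusted p = 0.0400, the lowest over alternatives). Causes of these shifts were not tested.

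With a replicate block pairing each del/del animal with the del/+ animal of the nearest number, 23 genes were called in females and 13 in males. The block gave 0.55, 0.80, 2.05 and 2.19 in females and 0.53, 0.65, -0.0021 and 1.27 in males for Arhgef12, Tspan17, Zcchc14 and Abca8b, and ended the female calls of Zcchc14 and Abca8b. Deviations within these pairs correlated by -0.034 to 0.403 in females and 0.147 to 0.380 in males, and the labels state no pairing. Female Tspan13, of the tetraspanin list, was 0.0027 with the erythroid covariate, against -0.27 (SE 0.11) without a covariate. Near-zero neighbours changed sign. Female Map1lc3b was -0.0084 with limma-voom, -0.011 with the block and -0.084 to 0.064 with libraries left out. Rnf44 was -0.0056 in females with the erythroid covariate. With libraries left out Rnf44 ranged from -0.0048 to 0.10 in females and -0.041 to 0.050 in males. It was 0.040 and 0.0016 in males with the plasmacytoid dendritic and mature B covariates. Prkar1a was 0.11 and 0.014 in females and 0.024 and 0.029 in males with the erythroid and plasmacytoid dendritic covariates, and -0.093 to 0.012 and -0.11 to 0.030 with libraries left out. Over the alternatives other than left-out libraries, female differences ran from 0.17 to 0.65 for Abca5, 0.47 to 0.95 for Apoe, 0.21 to 0.39 for Trio, 0.089 to 0.61 for App, -0.45 to -0.18 for Zcchc3 and 0.31 to 1.09 for Oaf. Female Abca9 ranged from -0.59 to 0.10 and Oaf from -0.083 to 0.79 with libraries left out. The likeness of Zcchc14 to Ncam1, Basp1 and Peg3 was 0.530, 0.320 and 0.434 without male del/+ library 2. Zcchc14 and Abca8b rest on 2 to 104 reads per library, so their levels in del/+ libraries are known only coarsely.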
